A study of Mus musculus with 764 samples.

Results

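The genes described here are 31 mouse genes of sterol and fatty acid synthesis, of its control by sterol regulatory element binding proteins (SREBPs), and of the liver X receptor pathway that opposes sterol accumulation. The rule takes them by name and known role and uses no measured value, though it was set with earlier results of these data known. All 31 had a row among the 23997 gene rows of both count tables. By role they comprise 6 genes of the mevalonate branch, 10 that carry squalene to cholesterol, 4 of SREBP control, 8 of fatty acid synthesis and 3 of the liver X receptor side. The first 16 are called the sterol synthesis genes.

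Cells make cholesterol from acetyl-CoA through mevalonate and squalene, and make fatty acids from the same acetyl-CoA pool. When membranes are poor in sterol, SCAP escorts SREBPs out of the endoplasmic reticulum, the cut fragments enter the nucleus and the synthesis genes are switched on, whereas INSIG proteins hold the SCAP and SREBP complex back when sterol is plentiful. Liver X receptors sense oxidised sterols and switch on the exporters ABCA1 and ABCG1, and in T cells both arms are known to move with activation and growth.

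The study asked how IL-10-producing CD4+ T cells of the spleen and of the small intestine differ. All cells came from adult mice carrying an IL-10 eGFP and a Foxp3 mRFP reporter that had received repeated intraperitoneal injections of anti-CD3, an antibody that activates T cells in vivo, and every cell was sorted as IL-10+ CD4+, with Foxp3+ cells included as a control. No untreated group was analysed here. Small intestinal cells came from intraepithelial and lamina propria isolation, and every cell was lysed in its own well and sequenced with SMART-seq2, a full-length protocol without molecular identifiers.

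The tables hold 764 cells, 190 from the small intestine and the others from the spleen. The labels place spleen cells in 3 well sets (plate 1 columns 1 to 12, plate 1 columns 13 to 24, and plate 2 columns 1 to 12) and all small intestinal cells in plate 2 columns 13 to 24, so tissue and plate position cannot be told apart. Cells held 6659 to 622997 reads each. First 12, 6 and 13 cells of the 3 spleen sets and 19 small intestinal cells with few reads were set aside, and then 47, 39 and 55 spleen cells and 36 small intestinal cells called in S or G2M phase were separated. The G1 cells that remained, 69.3%, 76.3% and 64.6% of the spleen sets and 71.1% of the small intestinal cells, carry the comparisons unless stated otherwise. They held a median of 353438 reads and 3294.5 genes in the spleen and of 325136 reads and 3105 genes in the small intestine. No label names the animal a cell came from, so each tissue counts as 1 sample and no test between tissues was possible. The spread of the 3 spleen sets is given beside the values as a yardstick. It is not replicate error, because the sets belong to 1 sample and differ in cell content, as the Foxp3 and Il10 reads below show. Intervals on shares of cells are exact 95% binomial intervals. They cover error in counting cells only, not differences between animals, because the cells of a tissue belong to 1 sample. No interval is given on reads, because amplified reads that carry no molecular identifier cannot be taken as separate molecules. Of the T cell markers Cd3e, Cd3d, Cd4 and Il10, all 4 were read in every set, with mean summed levels of 5555 to 6844 CPM (a gene's reads per 1000000 reads of that cell). Il10 alone had 1953.9, 1920.7 and 819.5 CPM in the 3 spleen sets and 2372.4 CPM in the small intestine. Its reads were found in 95.5%, 92.4% and 77.4% of cells of the spleen sets and in 99.3% of small intestinal cells. A read of Foxp3 was found in 85, 26 and 8 kept G1 cells of the 3 spleen sets and in 8 of the small intestine, so such cells were concentrated in the first set.

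In the small intestine most sterol synthesis genes, the SREBP brake Insig1 and the fatty acid elongase Elovl6 stood above the spleen, whereas fatty acid synthase, acetyl-CoA carboxylase and the sterol exporter Abcg1 stood below it. Levels were compared as the log2 ratio of mean CPM plus 1, small intestine over spleen. The median gene had a ratio of -0.22 among the 8823 genes with a mean of at least 10 CPM in 1 tissue, and scaling by TMM, DESeq2 or scran factors moved that median to between -0.01 and 0.02, so each ratio is to be read against it. Of the 31 members 25 reached 10 CPM. Their median ratio was 0.31, and that of the 14 sterol synthesis genes among them was 0.69. With 1 sample per tissue, a gene was counted as past the fold at a log2 ratio of 1 or more in size. Of the 25 members, 6 were at least that much higher in the small intestine (Hmgcs1, Mvk, Fdps, Sc5d, Insig1 and Elovl6), against 8.29% of all 8823 genes, and 2 were that much lower (Fasn and Abcg1), against 17.4%. By order alone, 14 of the 25 lay above all 3 spleen sets, which 25.3% of genes did, and 5 lay below all 3, which 44.7% of genes did. Of the 14 sterol synthesis genes 10 lay above all 3 sets and 1, Pmvk, below. Over the 30 members with any read the counts were 7 and 4 past the fold (7.92% and 14.6% of 16788 genes), and 16 above and 7 below all 3 spleen sets (27.3% and 31% of genes). Fads2, the desaturase of polyunsaturated fatty acids, was the member without a read: no kept cell of either tissue held one, and that count of 0 allows a share of at most 0.559%, taken as 3 counts of the total.

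**Figure D1:**
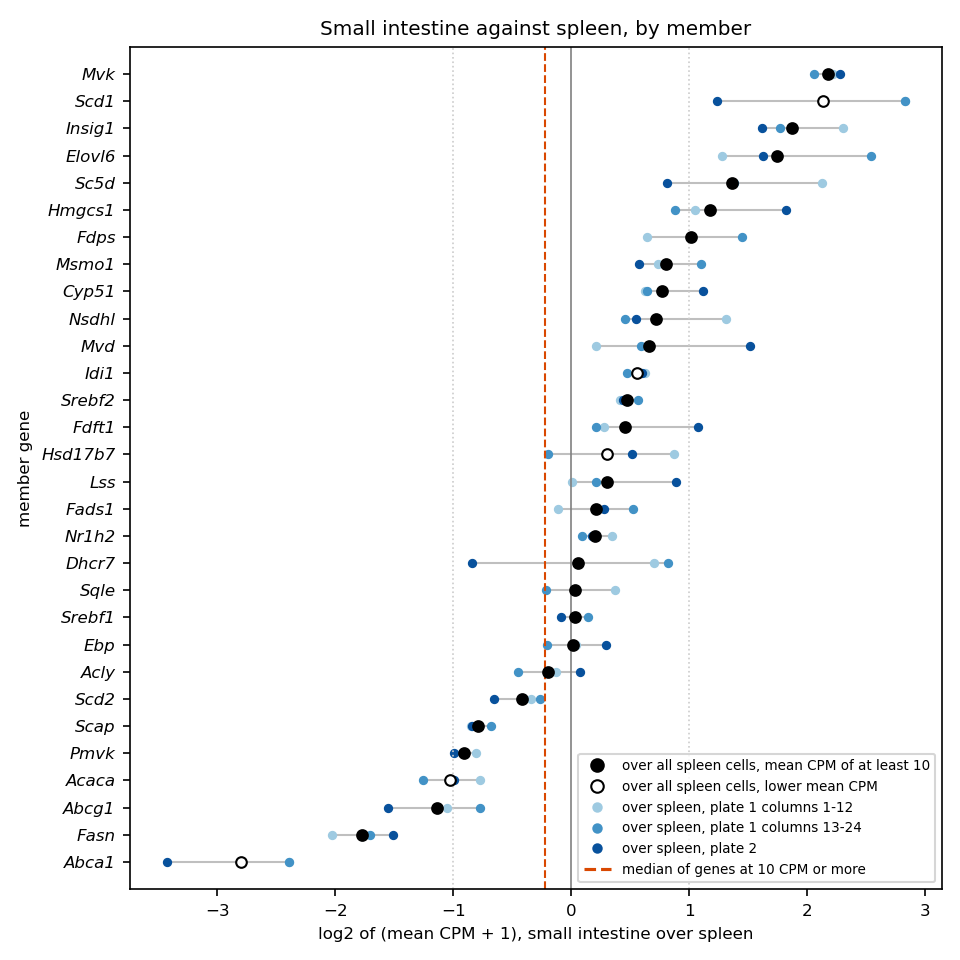
Log2 ratio of mean CPM plus 1, small intestine over spleen, for the 30 members with a read. Large points use all kept spleen cells (open where the mean stayed under 10 CPM in both tissues), small points use 1 spleen set each, and the dashed line is the median, -0.22, of the 8823 genes at 10 CPM or more. Among filled points Mvk, Insig1, Elovl6, Sc5d, Hmgcs1 and Fdps lie to the right of 1, and Abcg1 and Fasn to the left of -1.

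The promoters of the members past the fold at 10 CPM, and of Abca1, are shown because the tissue difference turns on the former and Abca1 is the other sterol exporter. The RefSeq promoter table for GRCm38.p6 held 24 of the 31 members (Fdps, Fdft1, Sqle, Scd1, Scd2, Fads1 and Abcg1 are the other 7), and each line gives the 250 bases before the annotated start, 5′ to 3′ on the gene's strand. Capitals mark every match, on either strand, to the sterol regulatory element TCACNCCAC, the CCAAT box CCAAT, the GC box GGGCGG and the E-box CACGTG; adjoining matches run together.
Hmgcs1: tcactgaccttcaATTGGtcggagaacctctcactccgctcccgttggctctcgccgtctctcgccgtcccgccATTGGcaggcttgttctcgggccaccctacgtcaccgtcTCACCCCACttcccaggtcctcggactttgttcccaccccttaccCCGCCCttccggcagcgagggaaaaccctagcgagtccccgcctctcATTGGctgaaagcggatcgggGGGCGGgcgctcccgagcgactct
Mvk: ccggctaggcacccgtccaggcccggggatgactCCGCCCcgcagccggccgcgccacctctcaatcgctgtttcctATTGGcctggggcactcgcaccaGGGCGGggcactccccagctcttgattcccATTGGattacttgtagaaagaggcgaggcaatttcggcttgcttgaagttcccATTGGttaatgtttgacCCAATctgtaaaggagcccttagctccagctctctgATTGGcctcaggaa
Sc5d: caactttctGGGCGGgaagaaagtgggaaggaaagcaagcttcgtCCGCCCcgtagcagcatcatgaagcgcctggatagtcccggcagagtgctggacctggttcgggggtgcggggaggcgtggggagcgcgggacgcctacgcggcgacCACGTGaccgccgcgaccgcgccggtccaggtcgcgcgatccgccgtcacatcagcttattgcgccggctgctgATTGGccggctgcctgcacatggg
Insig1: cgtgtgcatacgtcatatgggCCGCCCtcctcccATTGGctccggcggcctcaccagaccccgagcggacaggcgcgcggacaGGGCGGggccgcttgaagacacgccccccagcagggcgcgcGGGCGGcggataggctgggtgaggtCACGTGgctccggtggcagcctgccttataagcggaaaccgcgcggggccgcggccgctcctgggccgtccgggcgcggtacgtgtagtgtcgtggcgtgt
Elovl6: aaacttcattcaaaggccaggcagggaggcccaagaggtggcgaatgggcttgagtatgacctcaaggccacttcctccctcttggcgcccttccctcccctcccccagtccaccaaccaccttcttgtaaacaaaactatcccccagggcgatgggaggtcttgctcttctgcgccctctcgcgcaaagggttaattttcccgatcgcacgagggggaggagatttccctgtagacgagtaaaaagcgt
Fasn: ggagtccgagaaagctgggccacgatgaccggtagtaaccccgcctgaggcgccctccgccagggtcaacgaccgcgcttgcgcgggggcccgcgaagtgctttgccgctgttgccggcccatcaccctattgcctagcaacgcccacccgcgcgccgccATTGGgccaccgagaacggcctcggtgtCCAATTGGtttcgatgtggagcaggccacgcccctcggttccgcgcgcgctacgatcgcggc
Abca1: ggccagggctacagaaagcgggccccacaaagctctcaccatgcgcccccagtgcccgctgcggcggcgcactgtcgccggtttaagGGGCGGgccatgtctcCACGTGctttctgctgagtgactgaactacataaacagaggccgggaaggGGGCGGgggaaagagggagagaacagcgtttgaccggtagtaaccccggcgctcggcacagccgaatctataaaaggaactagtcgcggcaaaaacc
They lie at chr13:119690101-119690350 on the plus strand (Hmgcs1), chr5:114444019-114444268 on the plus strand (Mvk), chr9:42264301-42264550 on the minus strand (Sc5d), chr5:28071162-28071411 on the plus strand (Insig1), chr3:129532136-129532385 on the plus strand (Elovl6), chr11:120824548-120824797 on the minus strand (Fasn) and chr4:53159896-53160145 on the minus strand (Abca1). The Hmgcs1 promoter held the only match to the sterol regulatory element letters among the members, close to the middle of the window, and 1.05% of all 32851 promoters in the table hold one. A CCAAT box stood in at least 1 promoter of all 13 sterol synthesis genes in the table, and in 13 of their 16 promoters where genes have several starts, against 33.8% of all promoters. Mvk held 5 of these boxes within its 250 bases. GC boxes were in 13 of those 16 promoters, against 32.7% of all, and E-boxes in 3, against 6.02% of all. Elovl6 held none of the 4 motifs in this window, and Abca1 held GC boxes and an E-box but no CCAAT box. These matches describe letters and are not sites of measured binding.

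The mevalonate branch turns acetyl-CoA into the isoprenoid farnesyl diphosphate. Of its 5 genes above 10 CPM, 4 were higher in the small intestine than in any spleen set, against 25.3% of all genes. Hmgcs1, the synthase of hydroxymethylglutaryl-CoA at the head of the branch, had 45.8, 51.6 and 26.5 CPM in the 3 spleen sets and 96.1 CPM in the small intestine. The small intestine was highest, 0.88 to 1.82 above the single spleen sets on the log2 scale, with a ratio of 1.18 over all spleen cells. The highest single cell held 1320.2 CPM in the spleen and 1334.8 CPM in the small intestine, the median cell held none in either, and reads were seen in 78 spleen cells (19.4%) and 45 small intestinal cells (33.3%). Thinned to 200000 reads per cell, so that depth was equal, 18.5% (14.7% to 22.7%) of spleen cells and 32.3% (24.4% to 41.1%) of small intestinal cells held a read, and these intervals do not overlap.

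Mvk, mevalonate kinase, was scarce in the spleen, with 2.42, 2.83 and 2.28 CPM in the 3 spleen sets and 14.9 CPM in the small intestine. Its log2 ratio of 2.18 was the highest of the members above 10 CPM and changed little with the spleen set used (2.06 to 2.28). Reads came from 12 spleen cells (2.99%) and 17 small intestinal cells (12.6%), so a few cells set these means, and with a pseudocount of 10 CPM the ratio was 0.99. After thinning 2.90% (1.46% to 5.13%) of spleen cells and 10.8% (6.01% to 17.4%) of small intestinal cells held a read. Fdps, farnesyl diphosphate synthase, had 13.2, 7.13 and 9.98 CPM in the 3 spleen sets and 21.2 CPM in the small intestine. Its ratio was 1.01, within a range of 0.64 to 1.45 over the single sets, so whether it passed the fold depended on the spleen set chosen. Mvd, which decarboxylates mevalonate diphosphate, had 18.5, 13.9 and 6.87 CPM in the 3 spleen sets and 21.6 CPM in the small intestine, a ratio of 0.66 whose range of 0.21 to 1.52 came mainly from the low plate 2 spleen set. Idi1, the isopentenyl isomerase, never left the lowest levels: its means were 0.313, 0.461 and 0.333 against 1.02 CPM, from 18 spleen cells (4.48%) and 12 small intestinal cells (8.89%). Pmvk, phosphomevalonate kinase, went the other way. It had 40.6, 44.3 and 46.3 CPM in the 3 spleen sets and 22.8 CPM in the small intestine, below every spleen set at a ratio of -0.91 that was -0.19 without the filter on low reads or genes, and a read in 29% (24.5% to 33.9%) against 22.3% (15.5% to 30.4%) of thinned cells, intervals that overlap.

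**Figure D2:**
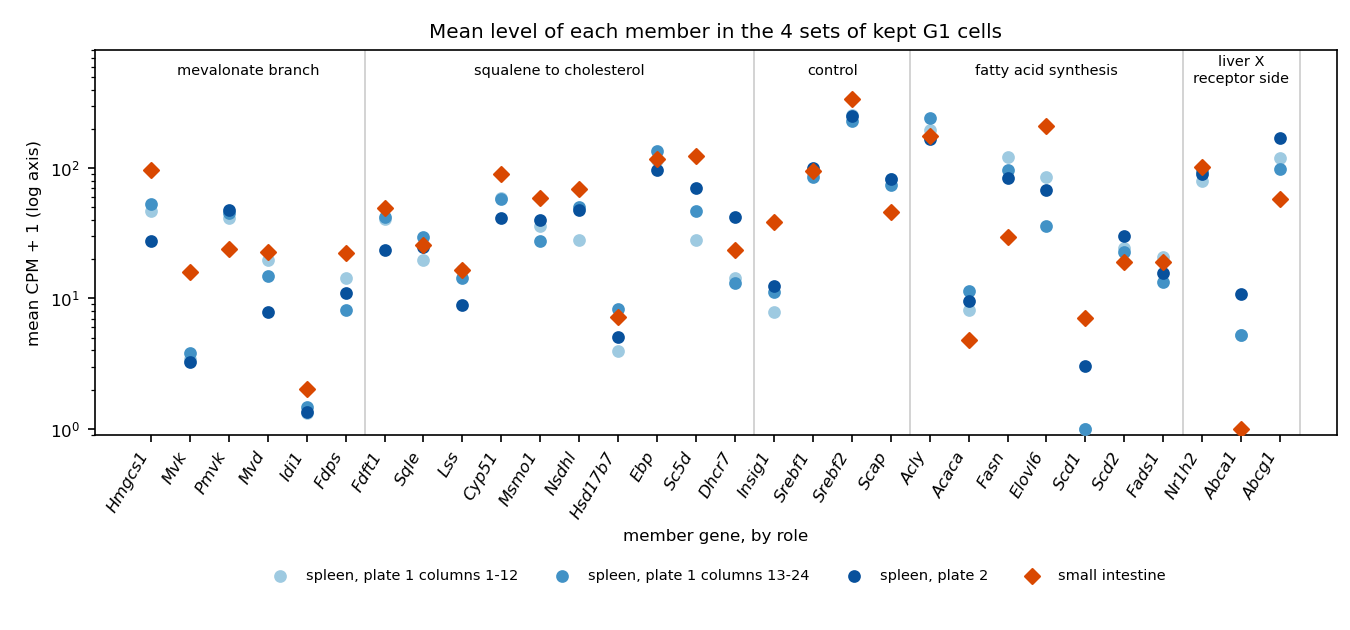
Mean CPM plus 1 (log axis) of each member with a read in the kept G1 cells, circles for the 3 spleen sets and diamonds for the small intestine, ordered by role. In the sterol synthesis groups the diamonds mostly lie above the circles, with Pmvk as an exception, and Abca1 has a diamond at 1 because no small intestinal cell held a read.

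Between squalene and cholesterol, 6 of the 9 genes above 10 CPM lay above all 3 spleen sets in the small intestine, against 25.3% of all genes. None of the 9 lay below all 3, against 44.7% of all genes, and the median log2 ratio of the 9 was 0.45. Sc5d, lathosterol oxidase near the end of the pathway, had 27.1, 46.1 and 69 CPM in the 3 spleen sets and 121.8 CPM in the small intestine. Its ratio of 1.36 was the highest here, but the spleen sets themselves spread widely, and against the plate 2 spleen cells alone it was 0.81. Among cells with a read the median was 204.5 CPM in the spleen and 388.3 CPM in the small intestine, and a read was found in 17.4% (13.7% to 21.6%) and 32.3% (24.4% to 41.1%) of thinned cells. The small intestine thus had both more cells with a Sc5d read and more reads in such cells.

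Cyp51, the lanosterol demethylase, had 57.5, 57 and 40.7 CPM in the 3 spleen sets and 89.5 CPM in the small intestine and a ratio of 0.77. Msmo1, the methylsterol monooxygenase that acts after it, had 34.7, 26.7 and 39 CPM in the 3 spleen sets and 58.4 CPM in the small intestine, and Nsdhl, the sterol dehydrogenase of the same demethylation step, had 26.9, 49.4 and 46.5 CPM in the 3 spleen sets and 68.3 CPM in the small intestine. Their ratios were 0.80 and 0.72. For all 3 genes the share of thinned cells with a read was higher in the small intestine, 18.5% (14.7% to 22.7%) against 30.8% (23% to 39.5%) for Cyp51, 14% (10.7% to 17.9%) against 21.5% (14.8% to 29.6%) for Msmo1 and 13.5% (10.2% to 17.3%) against 22.3% (15.5% to 30.4%) for Nsdhl, with the interval bounds apart only for Cyp51. In cells with a read the medians did not follow: Nsdhl stood at 281.1 CPM in the spleen and 204.6 CPM in the small intestine.

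Fdft1, squalene synthase, showed a smaller difference, with 39.5, 41.5 and 22.3 CPM in the 3 spleen sets and 48.1 CPM in the small intestine. Its ratio of 0.45 was 1.07 against the plate 2 spleen set and 0.24 with that set left out. Lss, lanosterol synthase, behaved alike at lower levels (15.4, 13.3 and 7.95 against 15.5 CPM). Over the first spleen set its ratio was only 0.007, so it counts as above all 3 sets by almost nothing. Sqle, squalene epoxidase, did not separate the tissues: the small intestine, with 24.5 CPM, lay between the spleen sets at 18.8, 28.6 and 23.9 CPM. Ebp, the sterol isomerase, was the most widely read sterol gene, in 45% of spleen cells and 47.4% of small intestinal cells, and its means of 114.2, 135.3 and 95.2 against 117.2 CPM overlapped. Dhcr7, the reductase of the last step, had 13.4, 12.2 and 41 CPM in the 3 spleen sets and 22.5 CPM in the small intestine. Here the plate 2 spleen cells were highest, and the ratio was 0.71 and 0.82 over the plate 1 sets but -0.84 over plate 2. Hsd17b7, a sterol ketoreductase, stayed under 10 CPM in every set (2.95, 7.27 and 4.05 against 6.23 CPM), and a single cell gave 52.7% of its small intestinal level.

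Per kilobase of the longest annotated coding transcript, Ebp was the highest of the sterol synthesis genes in both tissues, with 66.5 CPM per kilobase for the spleen and 67.2 in the small intestine. In the spleen it was followed by Pmvk at 36.6 and Nsdhl at 18.9, and in the small intestine by Nsdhl at 31.5, Msmo1 at 28.6 and Hmgcs1 at 27.7 CPM per kilobase. Hmgcs1 had 12.1 per kilobase in the spleen. Idi1 was the lowest on this scale, at 0.123 and 0.338 CPM per kilobase.

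Of the 4 control genes, Insig1 and Srebf2 were above all 3 spleen sets, Scap was below them and Srebf1 lay among them. Of all genes, 25.3% were above and 44.7% below all 3 sets. Insig1, which retains SREBPs in the endoplasmic reticulum and is itself an SREBP target, had 6.81, 10.3 and 11.6 CPM in the 3 spleen sets and 37.5 CPM in the small intestine. Its log2 ratio was 1.87 (1.62 to 2.30 over the single sets), its share of thinned cells with a read was 14.2% (10.9% to 18.2%) in the spleen and 38.5% (30.1% to 47.4%) in the small intestine, and the median in cells with a read was 16.4 and 41.6 CPM. The small intestine was higher on all 3 measures, and the share intervals lie apart.

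Srebf2, the gene of the SREBP that mainly drives sterol synthesis, was the most abundant member in both tissues by CPM, with 253.6, 228.3 and 249.9 CPM in the 3 spleen sets and 338.6 CPM in the small intestine and a ratio of 0.48. The median cell held 182.02 CPM in the spleen and 296.1 CPM in the small intestine. Srebf1, which mainly drives fatty acid synthesis, had 91.3, 84.3 and 98.8 CPM in the 3 spleen sets and 93.2 CPM in the small intestine and a ratio of 0.03. Scap, the escort of both, had 81.7, 72.7 and 81.3 CPM in the 3 spleen sets and 45 CPM in the small intestine, and all 3 spleen sets were close together above the small intestine, at a ratio of -0.79. A read of Scap was found in 34.6% (29.8% to 39.6%) and 23.8% (16.8% to 32.1%) of thinned cells.

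The fatty acid synthesis genes did not move as a group. Of the 5 above 10 CPM, Elovl6 was past the fold in the small intestine, against 8.29% of all genes. Fasn was past it in the spleen, against 17.4%, and the median ratio of the 5 was -0.198. Acly, which supplies cytosolic acetyl-CoA, had 193.7, 241.8 and 167.4 CPM in the 3 spleen sets and 176.8 CPM in the small intestine, and the small intestine lay inside the range of the spleen sets. Acaca, the carboxylase that makes malonyl-CoA, was below all 3 sets at low levels (7.13, 10.4 and 8.47 against 3.76 CPM, from 57 spleen cells (14.2%) and 10 small intestinal cells (7.41%)), with a ratio of -1.03. Fasn, the synthase of palmitate, had 120.2, 96.1 and 83.6 CPM in the 3 spleen sets and 28.7 CPM in the small intestine. No spleen set came near the small intestinal mean, the ratio was -1.77 (-2.03 to -1.51), and 37.5% (32.6% to 42.6%) of thinned spleen cells held a read against 17.7% (11.6% to 25.4%) of small intestinal cells. In cells with a read the median was 184.1 CPM in the spleen and 90.2 CPM in the small intestine, and 1 cell gave 20.8% of the small intestinal level.

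Elovl6, which elongates palmitate and its unsaturated relative, was opposite to Fasn. It had 84.9, 34.9 and 66.7 CPM in the 3 spleen sets and 207.7 CPM in the small intestine, a ratio of 1.75 (1.28 to 2.54). The spleen sets differed among themselves, yet the small intestine was above the highest of them. Reads were seen in 93 spleen cells (23.1%) and 80 small intestinal cells (59.3%), 21.1% (17.1% to 25.6%) and 57.7% (48.7% to 66.3%) after thinning, while the median in cells with a read was similar, 237.5 and 207.3 CPM.

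The desaturases were read in few cells. Scd2 had 23.2, 21.8 and 29 CPM in the 3 spleen sets and 18.1 CPM in the small intestine, slightly under every spleen set at a ratio of -0.42. Fads1 had 19.6, 12.3 and 14.7 CPM in the 3 spleen sets and 18.1 CPM in the small intestine, within the range of the spleen sets. Scd1 was read in 2 spleen cells (0.498%) and 2 small intestinal cells (1.48%), and 1 cell gave 99.6% of its small intestinal level. Its ratio of 2.13 was -0.19 without the highest cell of each tissue, a check chosen after seeing the data, so its place among the 7 members past the fold rests on 1 cell.

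On the liver X receptor side, Nr1h2, which encodes the receptor LXRβ, had 78.6, 94 and 89 CPM in the 3 spleen sets and 100.4 CPM in the small intestine and a ratio of 0.20, above all 3 spleen sets by a small margin. Abcg1, a sterol exporter and liver X receptor target, was lower in the small intestine, with 118.8, 97.4 and 167.8 CPM in the 3 spleen sets and 56.7 CPM in the small intestine. Its ratio was -1.14 (-1.55 to -0.77), and 45.6% (40.6% to 50.8%) of thinned spleen cells against 30.8% (23% to 39.5%) of thinned small intestinal cells held a read. Abca1, the exporter to lipid-poor apolipoproteins, was read in 15 spleen cells (3.73%, 2.10% to 6.08%) and in no small intestinal cell, where a count of 0 leaves room for a share of up to 2.22% by 3 counts of the total and 2.70% by the exact interval. These ranges overlap, and whether the share of cells with an Abca1 read differs between tissues was not tested. The spleen levels were 4.26, 4.25 and 9.76 CPM in the 3 sets, and a single cell gave 36.5% of the spleen level. The ratio drawn for it in the plot of log2 ratios depends on the pseudocount, and without the filter on low reads or genes it was -1.13.

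Of the genes listed beside the members, 7 others belong to the liver X receptor side, and 6 of them reached 10 CPM. Rxra, the retinoid X receptor that pairs with liver X receptors, had 11.5, 14.1 and 7.57 CPM in the 3 spleen sets and 2.04 CPM in the small intestine, a ratio of -2.01, from 47 spleen cells (11.7%) and 3 small intestinal cells (2.22%), with 1 cell giving 88.6% of the small intestinal level. Nr1h3, the gene of LXRα, was read in 11 spleen cells and in no small intestinal cell, with the same limit of 2.22%. None of the 6 was past the fold in the small intestine, and 3 lay below all 3 spleen sets (Rxra, Rxrb and Lpcat3), a share near the 44.7% of all genes.

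Scored per cell as the mean of log2(CPM + 1) over their genes, the 16 sterol synthesis genes averaged 1.02 ± 0.78, 1.12 ± 0.80 and 1.05 ± 0.81 (SD over the kept cells) in the 3 spleen sets and 1.48 ± 1.04 in the small intestine. The small intestine was 0.42 above the spleen mean, and 0.36 to 0.46 above the single sets, which differed from each other by no more than 0.10. The same score over all 16788 genes with a read was 0.08 lower in the small intestine, so the difference was not shared by the average gene. The SD over cells exceeds the difference between tissues, and the cells of the tissues overlap over most of their range. Cells at the upper end differed most: 10% of cells lay above 1.98, 2.28 and 2.14 in the spleen sets and above 3.14 in the small intestine, whereas the medians were 0.90, 1.05 and 0.98 against 1.21. The mevalonate branch alone was 0.38 higher in the small intestine and the steps from squalene to cholesterol 0.44 higher.

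The fatty acid synthesis score was 1.46, 1.36 and 1.33 in the spleen sets and 1.48 in the small intestine, a difference of 0.10 over the spleen mean that is no larger than the spread of the 3 sets; without cells with a Foxp3 read it was 0.214. The liver X receptor score was 2.28, 2.45 and 2.57 against 2.17, lower in the small intestine by 0.26 on average and by 0.11 to 0.40 over the single sets. The control genes scored 3.57, 3.24 and 3.53 against 3.75, a difference of 0.31 over the spleen mean that is also smaller than the spread of the 3 sets. All 31 members together were 0.26 higher in the small intestine, where the spleen sets lay within 0.01 of each other.

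**Figure D3:**
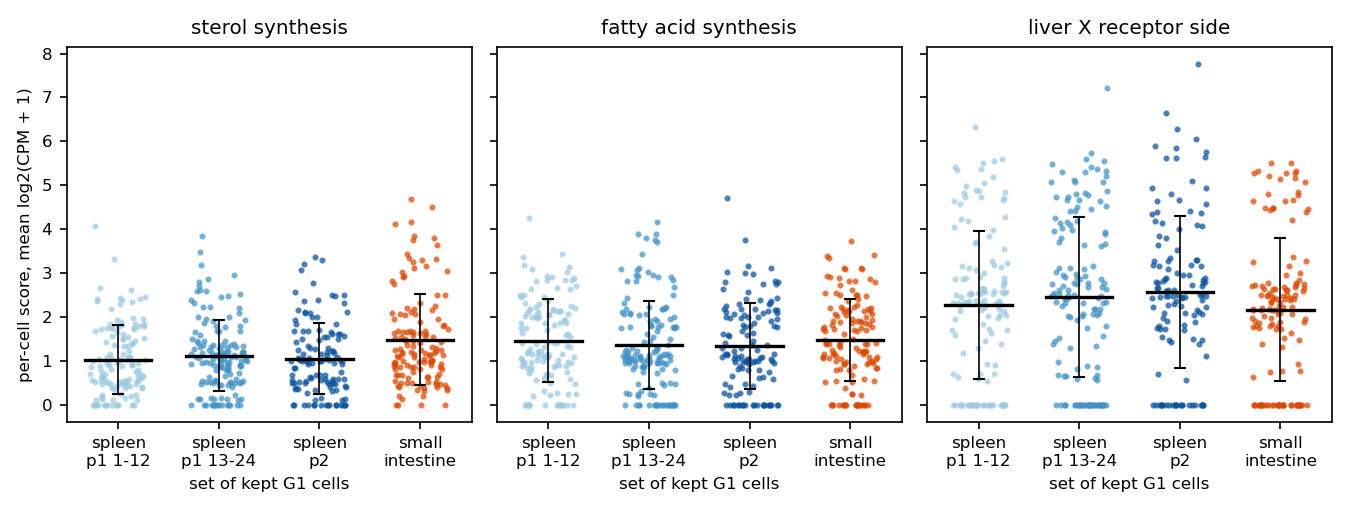
Per-cell scores (mean log2(CPM + 1) over the genes of each group) in the 4 sets of kept G1 cells. Points are cells, thick lines means and error bars SD over cells. The sterol synthesis mean is 1.48 in the small intestine and 1.02 to 1.12 in the spleen sets, and 4 of the 5 cells above 4 are small intestinal.

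The number of sterol synthesis genes read in a cell shifted in the same direction. A cell held a read of 2.53, 2.76 and 2.56 of the 16 genes on average in the spleen sets and of 3.64 in the small intestine. None of the 16 was read in 45 spleen cells (11.2%, 8.28% to 14.7%) and in 4 small intestinal cells (2.96%, 0.813% to 7.41%), and 5 or more were read in 16.2% (12.7% to 20.1%) and 27.4% (20.1% to 35.7%). With every cell thinned to 200000 reads, which left out 23 spleen and 5 small intestinal cells, the shares without any were 12.1% (9.02% to 15.9%) and 3.08% (0.845% to 7.69%), and those with 5 or more were 14% (10.7% to 17.9%) and 23.8% (16.8% to 32.1%). The order of the tissues was the same before and after thinning. Small intestinal cells also held fewer genes in all, a median of 3105 against 3294.5.

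**Figure D4:**
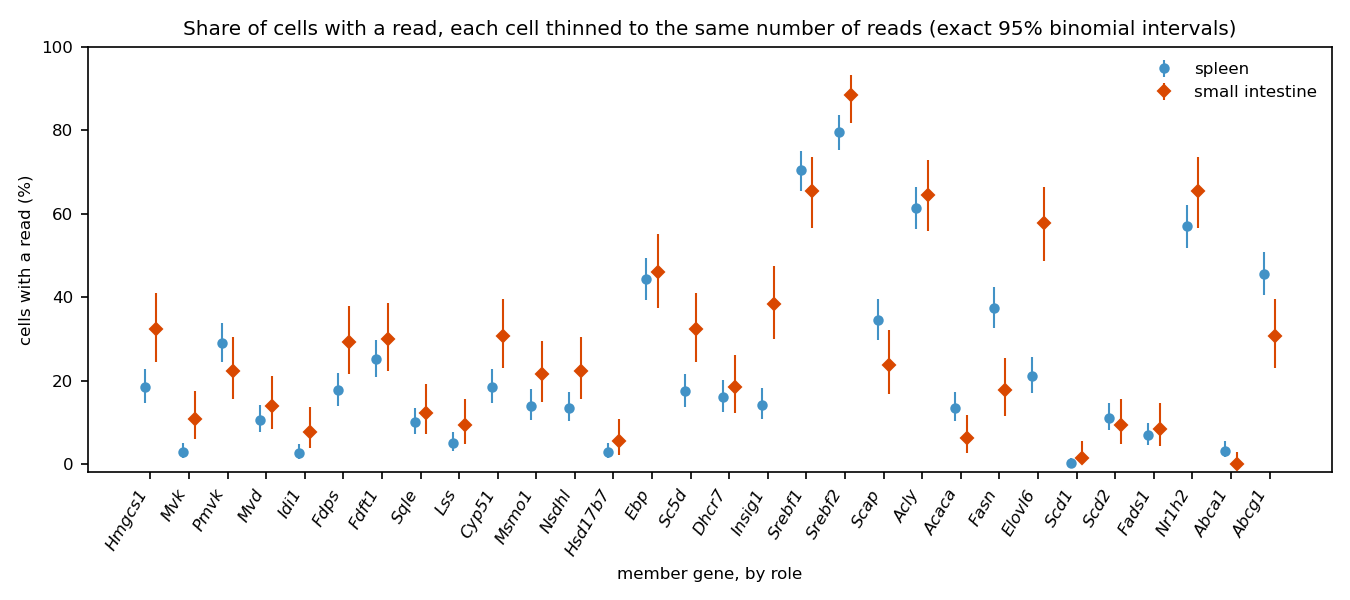
Share of kept G1 cells with at least 1 read of each member after thinning to 200000 reads per cell, with exact 95% binomial intervals. The intervals lie apart with the small intestine higher for Hmgcs1, Mvk, Cyp51, Sc5d, Insig1 and Elovl6, and with the spleen higher for Fasn and Abcg1. How many of all genes have intervals apart was not counted. The intervals cover counting error only, with 1 sample per tissue.

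Cells called in S or G2M phase, 47, 39 and 55 in the spleen sets and 36 in the small intestine, had higher sterol synthesis scores than G1 cells of the same set. The means were 1.64 against 1.02, 1.62 against 1.12 and 1.52 against 1.05 in the spleen, and 2.57 against 1.48 in the small intestine, differences of 0.62, 0.50, 0.47 and 1.09. The score of all genes with a read was also higher in S or G2M cells, by 0.35, 0.37, 0.32 and 0.47, and those cells held a median of 4233 genes in the spleen sets together and 4504.5 in the small intestine. How far genes per cell account for the score was not tested. No member is among the genes by which the phase was called. In mean CPM the spleen showed no such difference: the median log2 ratio of the 14 sterol synthesis genes above 10 CPM, S or G2M over G1, was -0.07 in the spleen, where the median gene had -0.11, and 0.53 in the small intestine, where the median gene had -0.03.

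By gene, 4 of the 25 members were higher in S or G2M cells of all 4 sets (Mvk, Fdft1, Ebp and Fads1), against 13.3% of genes, and 3 were lower in all 4 (Elovl6, Nr1h2 and Abcg1), against 18.8%. The first count is near the share of all genes and the second is under it, so neither sets the members apart. Ebp was at 177.6 CPM in S or G2M cells and 115.9 CPM in G1 cells of the spleen, and at 152.8 and 117.2 CPM in the small intestine. Elovl6, which was higher in the small intestine than in the spleen, had 25.1 CPM in S or G2M and 61.3 CPM in G1 cells of the spleen, but 177.7 and 207.7 CPM in the small intestine. Abcg1 had 72.3 and 126.2 CPM in the spleen and 37 and 56.7 CPM in the small intestine. Whether the phase difference itself differs between tissues was not tested, as each tissue is 1 sample.

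**Figure D5:**
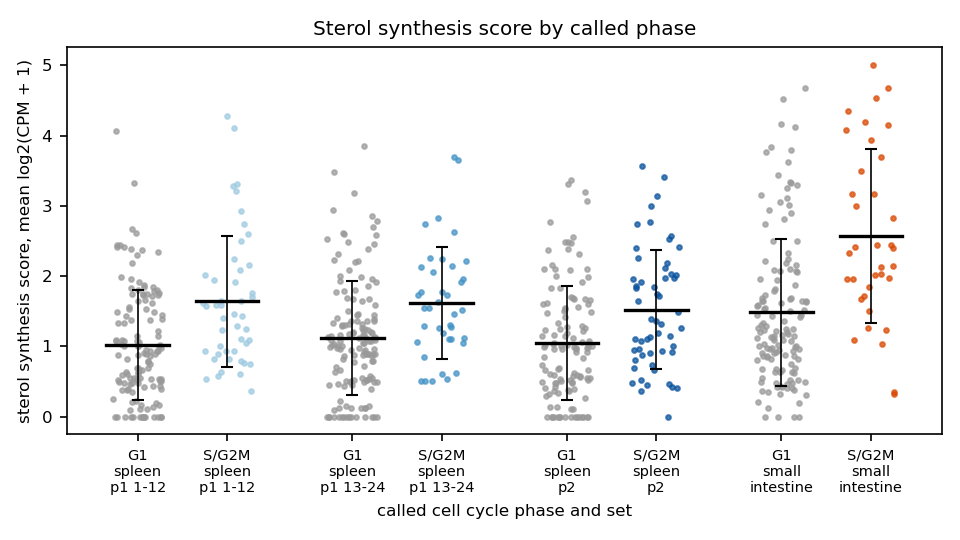
Sterol synthesis score of each cell by called phase in the 4 sets (G1 in grey, S or G2M in colour), with thick lines for means and error bars for SD over cells. S or G2M means are above G1 means in all 4 sets, with the widest gap, 1.09, in the small intestine.

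Neighbouring pathways were compared in the same way. Of 15 further genes of sterol synthesis, uptake, transport and storage, 13 reached 10 CPM, with a median log2 ratio of 0.17. Past the fold were 2 in the small intestine and none in the spleen, against 8.29% and 17.4% of all genes. By order, 6 lay above and 4 below all 3 spleen sets, against 25.3% and 44.7% of all genes. Soat1, which esterifies cholesterol for storage, was one of the 2 past the fold, with 50.1, 69.5 and 40.5 CPM in the 3 spleen sets and 120.5 CPM in the small intestine and a ratio of 1.14. Of 16 further genes of fatty acid synthesis, activation and elongation, 13 reached 10 CPM and 11 of these lay below all 3 spleen sets, against the 44.7% of all genes given above. Their median ratio was -0.70. Of the 13, 3 were past the fold in the spleen, against 17.4% of all genes, and none in the small intestine. They were Mecr, an enzyme of mitochondrial fatty acid synthesis (19.2, 14.1 and 13.1 against 2.45 CPM), Acsl5, an acyl-CoA synthetase (347.1, 290.8 and 283.2 against 137.8 CPM), and Mid1ip1, an activator of acetyl-CoA carboxylase (16.7, 17.6 and 14.8 against 7.39 CPM). Gpam, an acyltransferase of glycerolipid synthesis, was also past the fold but under 10 CPM in both tissues. In Mecr, Acsl5, Mid1ip1 and Gpam the small intestine was the lower tissue, as with Fasn and Acaca.

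All 12 genes of fatty acid oxidation reached 10 CPM, and their median ratio of -0.17 was close to that of all genes. Acadl, the long-chain acyl-CoA dehydrogenase, was past the fold in the small intestine, with 135.3, 165.8 and 125.6 CPM in the 3 spleen sets and 447.7 CPM in the small intestine, a ratio of 1.64 and a read in 43% (38% to 48.2%) and 78.5% (70.4% to 85.2%) of thinned cells. Eci1, an enoyl-CoA isomerase of unsaturated fatty acid oxidation, was past it in the opposite direction, with 37.8, 39.2 and 34.5 CPM in the 3 spleen sets and 7.81 CPM in the small intestine and a ratio of -2.12. The other 10 stayed within the fold. Of all genes, 8.29% were past it in the small intestine and 17.4% in the spleen.

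Markers of other cell types were low beside the T cell markers in all sets, and Epcam was the highest of them. The mean summed level of 6 epithelial markers was 64.9, 26.5 and 13.7 CPM in the spleen sets and 20.9 CPM in the small intestine, with 3, 4, 4 and 6 of the 6 read. Fabp1 and Fabp2 were at 0 in every spleen set, whereas Epcam had 58.1, 21.7 and 8.33 CPM there and 9.13 CPM in the small intestine. Epcam was read in 15.8%, 11% and 7.26% of cells of the spleen sets and in 8.89% of small intestinal cells. Krt8 was read in 1.24% of spleen cells and 8.15% of small intestinal cells, and Lgals4 in 12.2% and 17%. The mean summed level of 4 myeloid markers was 2.49 to 10.2 CPM in the spleen sets and 1.86 CPM in the small intestine, where Lyz2 and Emr1 were at 0. That of 3 B cell markers was at most 11.8 CPM, with Ms4a1 at 0 outside the plate 2 spleen set, and that of 3 adipocyte markers at most 4.25 CPM. The summed myeloid level thus was lowest where Abca1 and Abcg1 were lowest, and the part of these markers in those results was not tested. Itgax went the other way, at 0 in every spleen set and 1.79 CPM in the small intestine, from 1 cell. In the spleen set of plate 1 columns 13 to 24, Lyz2, Csf1r and Itgax were at 0. The proliferation markers Mki67 and Top2a summed to 166.7, 192.7 and 188.7 CPM in G1 cells of the spleen sets and to 108.7 CPM in the small intestine.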

How the data were processed

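Each sample is 1 sorted cell. The authors aligned paired-end SMART-seq2 reads with STAR in 2 passes and deposited counts of reads per gene and cell, which are not normalised. The methods name the build Mm8 and the submitters' processing notes mm10; the counting tool and annotation are not given in the sources used here, and no count was placed by coordinates. Cells more than 3 median absolute deviations below their tissue's median log reads or log genes were removed, phases were called with cyclone (scran 1.30.0, R 4.3.3), and CPM, scores and shares were computed with Python 3.11.15, pandas 2.3.3, numpy 2.4.6 and scipy 1.17.1. Steps were tested on simulated data. Alternative scalings used edgeR 4.0.16 (TMM), DESeq2 1.42.0 and scran. All 764 columns were used, and none held identical values. Lengths came from GENCODE M21 and promoters from RefSeq.

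Members and lists were chosen with earlier results of these data known. All members are given; genes beside them are named if past the fold and beyond all 3 spleen sets, or if among the 10 most like the sterol synthesis score. Some genes that this rule names are not reported here.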

Additional observations from a re-analysis of the deposited data

Results flagged for a closer look

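For 6 members the difference between S or G2M cells and G1 cells had 1 sign in all 3 spleen sets and the other sign in the small intestine; these differences between tissues were not tested. Of the 25 members above 10 CPM, 5 were lower in the spleen and higher in the small intestine, a pattern that 9.08% of the 8823 genes showed. For Sqle, squalene epoxidase, the log2 ratio of S or G2M over G1 cells was -0.03, -1.21 and -0.11 in the spleen sets and 1.24 in the small intestine. Lss, lanosterol synthase, had -1.52, -0.51 and -1.78 against 0.74, and Msmo1, the methylsterol monooxygenase, had -0.80, -1.16 and -1.37 against 0.63. Fdps had -0.52, -0.90 and -0.01 against 0.60, and Fasn had -0.16, -0.37 and -0.36 against 0.26. The opposite pattern, which 3.91% of genes showed, was seen for Cyp51, with 0.10, 0.54 and 0.20 in the spleen sets against -0.32.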

How the results depend on the processing

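No paired analysis was possible because no result comes from a test and each tissue is 1 sample. Every score difference kept its sign under all alternatives run. The sterol synthesis difference of 0.42 was 0.221 with medians over cells, 0.539 with only members read in at least 25% of cells of a tissue, 0.511 with all phases kept, 0.627 and 0.226 with pseudocounts of 0.1 and 10 CPM, and 0.484 without cells with a Foxp3 read. In that order the difference over all members, 0.256, was 0.137, 0.366, 0.315, 0.376, 0.142 and 0.331, and it was 0.222 without the filter on low reads, 0.307, 0.315 and 0.308 under TMM, DESeq2 and scran scaling, 0.261 after thinning and 0.251 with plate 2 cells only. The fatty acid difference of 0.098 was 0.238 with medians, 0.414 with widely read members only and 0.214 without Foxp3-read cells. The phase difference of the sterol score was 0.821 and 0.245 in the spleen and 1.71 and 0.527 in the small intestine with the 2 pseudocounts, 0.981 in the small intestine after thinning, and 0.436 in the spleen without Foxp3-read cells. The median correlation between sterol genes was 0.0622 and 0.112 (spleen, small intestine) with all phases, 0.0472 and 0.0826 without Foxp3-read cells, 0.0766 and 0.119 with widely read members, and 0.044 in the spleen after thinning. Past the fold, 7 members higher in the small intestine became 4 with a pseudocount of 10 CPM, and 4 lower became 2 with that pseudocount, under TMM and DESeq2 scaling and with widely read members; these last also gave 10 and 4 members above and below all 3 spleen sets, in place of 16 and 7. By single gene, the Hmgcs1 ratio was 0.96 without the plate 2 spleen set, and Scd1, as a check added after seeing the data, was -0.189 without the highest cell of each tissue. Ratios of Sqle, Ebp and Dhcr7 changed sign in 4 settings each and that of Srebf1 in 3. The causes were not tested. Depth limits the low members most: 14 of the 31 were read in under 25% of cells of both tissues.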

Other observations

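Cells with a Foxp3 read were unevenly spread: 85, 26 and 8 kept G1 cells of the 3 spleen sets and 8 of the small intestine held one. In the first spleen set, which held most of them, the fatty acid synthesis score was 1.65 in cells with a Foxp3 read and 1.11 in the others, and the sterol synthesis score 1.09 and 0.91, while the median genes per cell were 3523 and 3227.5. In the second set the fatty acid scores were 1.52 and 1.32 and the sterol scores 1.09 and 1.13. The 8 such cells of the plate 2 spleen set and the 8 of the small intestine are too few to read a direction from: their sterol scores were 2.02 against 0.98 and 0.99 against 1.51.

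Within a tissue, the sterol synthesis genes were hardly correlated with each other across G1 cells. Over 120 pairs the median Spearman correlation was 0.05 for the spleen and 0.07 for the small intestine. The pairs with the highest values were Idi1 and Hsd17b7 in the spleen, at 0.20 with 4 cells holding reads of both, and Hmgcs1 and Msmo1 in the small intestine, at 0.31 with 17 such cells. In counts this sparse such values are no finding. The score itself was correlated with the number of genes read in the cell, at 0.45, 0.48 and 0.61 in the spleen sets and 0.46 in the small intestine, much less with reads per cell (-0.10, 0.02, 0.20 and -0.01) and with Il10 (0.13, -0.01, 0.16 and 0.01).

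Among 4362 other genes read in at least 25% of cells of both tissues, those whose level followed the sterol synthesis score most closely in all 4 sets included Lgals1, Kpnb1, Snrpa, Pkm, Pnp, Ran, Tfdp1, Azin1 and Psma5, ranked by the lowest of their 4 correlations. These ran from 0.24 for Lgals1 to 0.19 for Psma5, where the median gene had -0.03. The genes were picked as the highest on this value, so their place above the median is no finding. Pkm, a glycolytic enzyme, reached 0.36, 0.23 and 0.42 in the spleen sets and 0.21 in the small intestine, and Ran, of nuclear transport, 0.35, 0.23, 0.41 and 0.20. All points share the number of genes read per cell, as the score does.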
